A study of Mus musculus with 2 samples.

Results

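The loci of 7 transcription factor and receptor genes of the T cell lineage were examined in a map of CTCF binding in double-negative (DN) thymocytes. The genes were Notch1, Tcf7, Gata3, Bcl11b, Runx1, Ikzf1 and Myb. A CTCF region was a run of touching 25-bp bins in the deposited track (mm9), and it belonged to a locus when its centre lay in the gene span or within 250 kb of it. The upper limit at Ikzf1 was cut at 11.75 Mb. The rule found 166 regions of the 53551 in the whole track, in windows that sum to 3.88 Mb. They numbered 36 at Notch1, 27 at Tcf7, 12 at Gata3, 25 at Bcl11b, 27 at Runx1, 13 at Ikzf1 and 26 at Myb.

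The cells were CD4-CD8- thymocytes of C57BL/6 mice, 4 to 8 weeks old, that lack Rag1. Without this recombinase subunit, thymocytes cannot assemble an antigen receptor and stop at the DN stage. The labels list 1 CTCF chromatin immunoprecipitate and 1 input control, both from such animals, and give neither the number of animals pooled nor their sex. Everything below rests on the 1 CTCF library, and the input was not analysed here. The track holds positions without height or score, so a region is present or absent, width is the sole measure of its size, and the depth behind it is unknown. There was no replicate, and no test between conditions was possible. The intervals below cover counting error only, and neighbouring sites are not independent. The DN label could not be checked against marker genes in a binding track.

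CTCF is a zinc-finger protein that binds DNA and stops loop extrusion by cohesin, and its sites mark the anchors of many chromatin loops and domain borders. In the thymus, Notch1 is the receptor through which stromal ligands drive progenitors into the T lineage. Tcf7 (which encodes TCF-1) and Gata3 are switched on by that signal, and Bcl11b then marks commitment to the lineage. Runx1, Ikzf1 (Ikaros) and Myb act already in haematopoietic progenitors and remain in use in thymocytes. In the supplied RefSeq promoter table, 6 of the 7 genes lie on the minus strand, and Ikzf1 lies on the plus strand. Upstream therefore means higher coordinates at the 6 genes and lower coordinates at Ikzf1.

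Promoter sequences are shown for the 2 genes whose starts come up below, Notch1 with a run of narrow regions at its 5′ end and Runx1 with a distal and a proximal promoter. They are from RefSeq (GRCm38.p6) and run 5′ to 3′ from 250 bases before to 50 bases after the start. The Notch1 promoter is chr2:26503773-26504072, the distal Runx1 promoter is chr16:92826025-92826324 and the proximal one is chr16:92697280-92697579, all on the minus strand. Capitals mark AGNNGGC, a short core of the CTCF consensus, or its reverse complement GCCNNCT.
Notch1: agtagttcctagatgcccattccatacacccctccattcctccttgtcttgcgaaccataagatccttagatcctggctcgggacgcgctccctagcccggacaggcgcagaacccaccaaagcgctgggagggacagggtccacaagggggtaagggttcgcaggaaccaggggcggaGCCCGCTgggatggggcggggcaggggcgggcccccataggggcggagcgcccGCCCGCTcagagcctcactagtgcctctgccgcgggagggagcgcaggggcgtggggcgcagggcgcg
Runx1 distal: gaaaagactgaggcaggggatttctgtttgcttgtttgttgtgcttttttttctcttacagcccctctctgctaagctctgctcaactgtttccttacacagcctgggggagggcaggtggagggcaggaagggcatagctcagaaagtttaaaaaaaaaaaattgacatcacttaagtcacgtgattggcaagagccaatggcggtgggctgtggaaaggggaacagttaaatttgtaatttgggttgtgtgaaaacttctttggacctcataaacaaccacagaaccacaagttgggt
Runx1 proximal: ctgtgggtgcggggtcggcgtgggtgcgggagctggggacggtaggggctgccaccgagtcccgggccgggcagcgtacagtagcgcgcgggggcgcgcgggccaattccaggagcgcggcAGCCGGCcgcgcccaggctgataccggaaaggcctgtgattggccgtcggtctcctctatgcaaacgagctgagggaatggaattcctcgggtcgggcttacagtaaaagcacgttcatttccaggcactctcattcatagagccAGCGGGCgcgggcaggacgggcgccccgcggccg

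The 7 genes all matched the table, with 10 promoter entries among them. AGNNGGC on either strand was found in 8 of the 10, and in 59.8% of all 32851 promoters of 300 bases, so it is common. The stricter AGGGGGC, which AGNNGGC contains, was found in 0 of the 10 and in 10.6% of all. No match says that these letters are not in that window. The build differs from that of the track, so these promoters were not placed on the map, and the sequences under the regions themselves were not analysed here.

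CTCF regions were about as frequent or more frequent at each locus than over the map. The 7 windows together held 42.8 regions per Mb (exact Poisson 95% interval 36.5 to 49.8), and the rest of chromosomes 1 to 19 and X held 20.8 per Mb. The ratio was 2.06 (95% interval 1.76 to 2.40), and it ranged from 1.88 to 2.21 when each locus was left out in turn. The rest of the map was not limited to the surroundings of genes. Windows around other genes were not compared, so the ratio does not set these loci apart from other genes. Covered length followed, with 1.69% of the windows and 0.803% of the map within regions. With the 250-kb flank Notch1 stood highest, with 65.5 regions per Mb (45.8 to 90.6). Tcf7 had 50.9 (33.6 to 74.1), Myb 48.1 (31.5 to 70.5), Bcl11b 42.4 (27.4 to 62.6) and Runx1 37.0 (24.4 to 53.8). Ikzf1 had 31.7 per Mb (16.9 to 54.2) and Gata3 22.6 (11.7 to 39.6). The intervals of neighbours in this order overlapped, and those of Notch1 and Gata3 did not in this main setting. With regions joined across 1000 bp these 2 overlapped as well (35.3 to 75.7 and 10.4 to 37.1). The same was so without regions of 100 bp or less and with a flank of 100 kb. With that shorter flank Tcf7 had 69.6 regions per Mb and Notch1 68, so the top rank depends on the flank.

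The loci differed in how often their density was met elsewhere in the map. Windows of the same length were laid over the map every 100 kb, and 4.5% of them held at least as many regions as the Notch1 window. The share was 9.9% for Tcf7, 11.4% for Myb, 15.1% for Bcl11b, 19.1% for Runx1, 26.4% for Ikzf1 and 38.4% for Gata3. Each locus lay above the median window of its length, which held 6 to 11 regions. Relative to its own chromosome the order changed. Notch1 reached 2.83 times the density of chromosome 2, Myb 2.27 times that of chromosome 10, Bcl11b 2.26 times that of chromosome 12 and Runx1 2.01 times that of chromosome 16. Tcf7 was at 1.5 times the density of chromosome 11. Ikzf1, on the same chromosome, was at 0.935 times and Gata3 at 0.978 times the density of its chromosome.

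**Figure D1:**
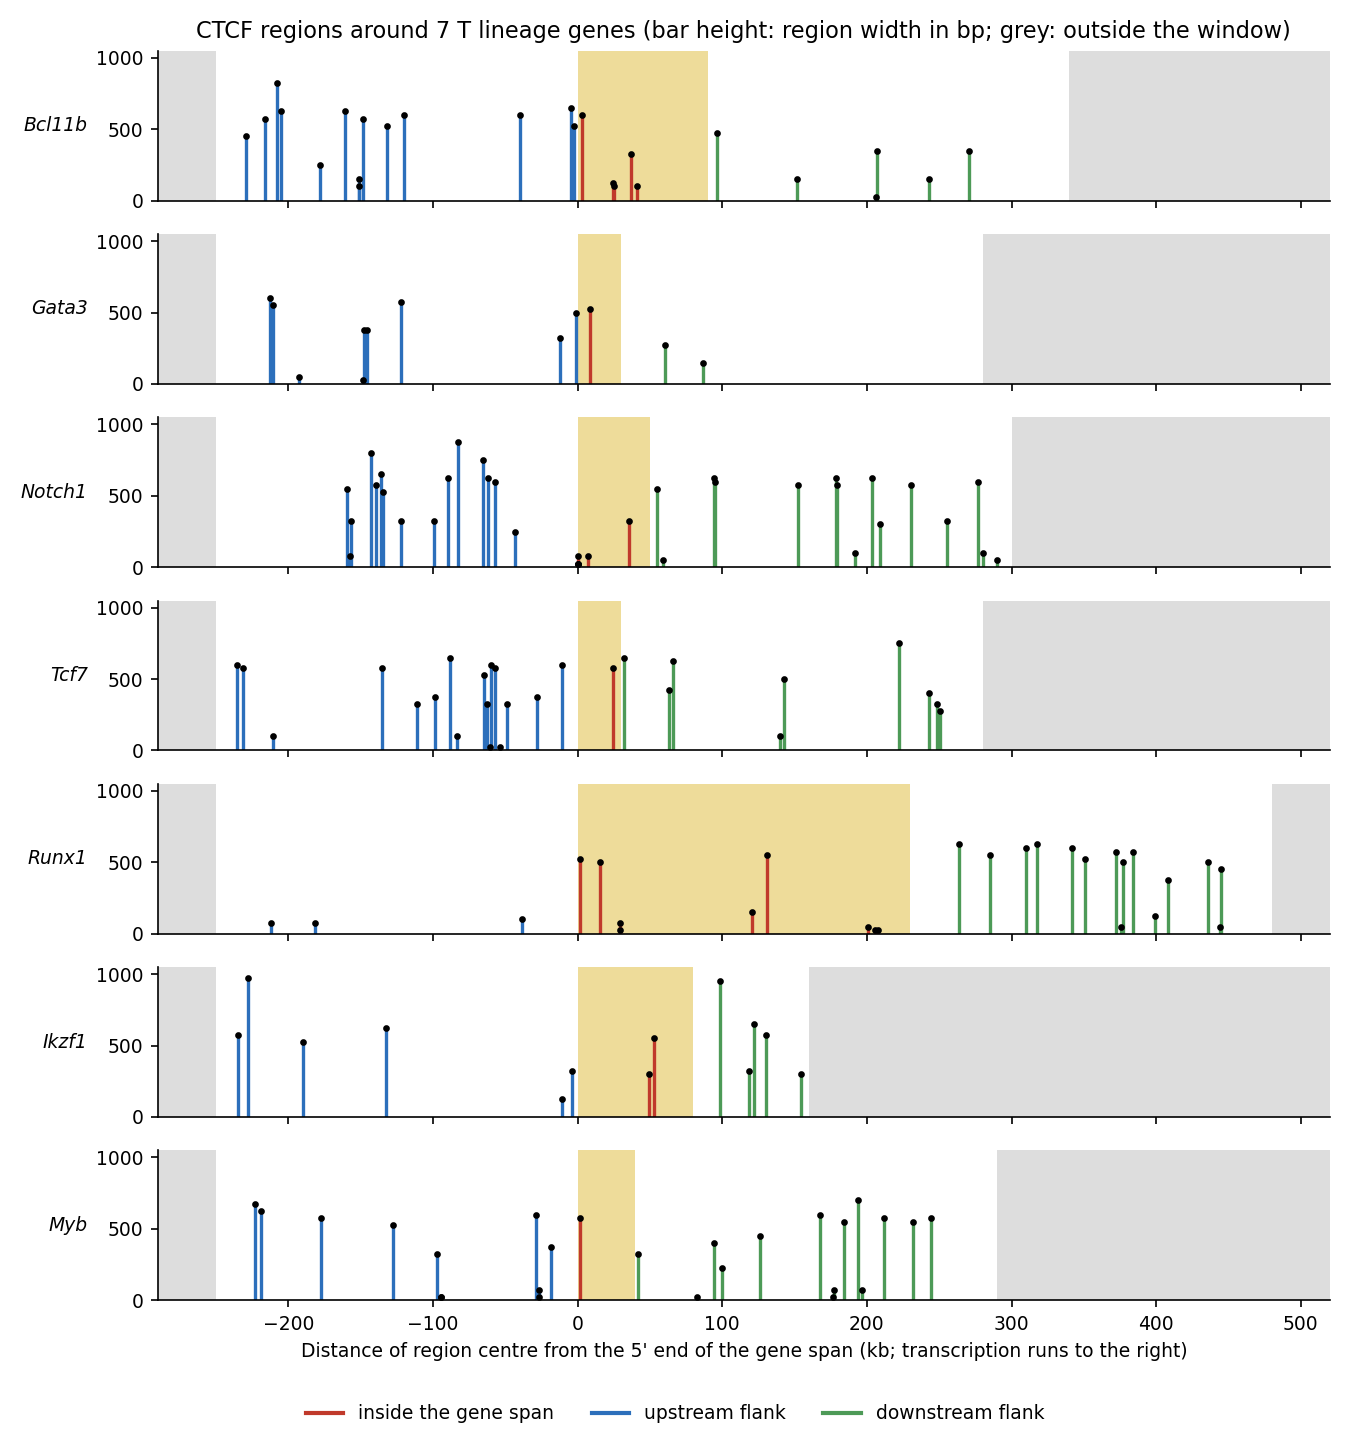
Position and width of the 166 CTCF regions around each gene. The x axis is the distance of a region's centre from the 5′ end of the gene span in kb, with transcription to the right, and the height of each bar is the region's width in bp. Yellow marks the gene span and grey lies outside the window. The downstream flanks of Bcl11b and Gata3 and the upstream flank of Runx1 hold 6, 2 and 3 bars, none of which reaches 500 bp.

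**Figure D2:**
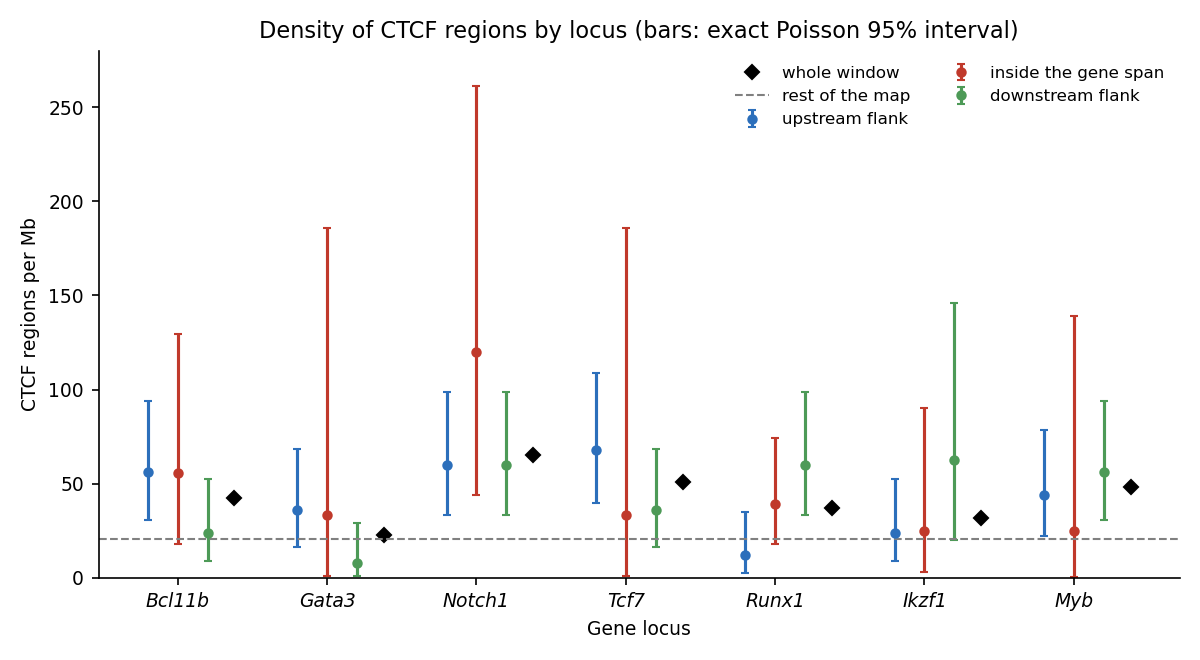
CTCF regions per Mb upstream of, inside and downstream of each gene span, with exact Poisson 95% intervals from the counts of 1 library. Black diamonds give the whole window and the dashed line the rest of the map, at 20.8 per Mb. Notch1 has the highest window density, 65.5 per Mb, and Gata3 the lowest, 22.6 per Mb.

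Inside and outside the spans of the examined genes, CTCF regions were about equally frequent, and the median width was lower inside. The gene spans held 25 regions, 45.5 per Mb (exact Poisson 95% interval 29.4 to 67.1). The surrounding parts of the windows held 141, 42.3 per Mb (35.6 to 49.9). Most of these parts hold other protein-coding genes, so outside does not mean free of genes. Of the 141 regions, 130 lay in flanks with a neighbouring gene, 50.4 per Mb (42.1 to 59.8). The other 11 lay in flanks without one, 14.7 per Mb (7.32 to 26.2). The ratio of inside to outside density was 1.07 (95% interval 0.672 to 1.65). Leaving out regions of 100 bp or less turned it to 0.690 (0.357 to 1.23), and both intervals include equality. The median width was 125 bp inside (order-statistic 95% interval 75 to 500 bp) and 500 bp outside (375 to 550 bp). A width of 500 bp or more was reached by 8 of 25 inside regions, 32.0% (exact binomial 95% interval 15.0 to 53.5%). Over the map 46.6% of regions were that wide. Outside, 73 of 141 were, 51.8% (43.2 to 60.3%). Among inside regions 12 of 25 measured 100 bp or less, 48.0% (27.8 to 68.7%). Outside the spans 27 of 141 did, 19.1% (13.01 to 26.6%), and over the map 22.3%. Of the 12 narrow inside regions, 5 lay in Notch1, 5 in Runx1 and 2 in Bcl11b. Short regions with another within 200 bp made up 6 of the 25 inside regions, in Notch1 and Runx1. The lower median and the larger narrow share inside therefore rest in part on such pieces, and neither is given here for joined regions. Without Notch1 the inside share at 500 bp or more was 42.1% (20.3 to 66.5%), so the lower share inside rests in part on that gene. It rests in part on short pieces as well. With regions joined across 200 bp, 38.1% of inside regions (18.1 to 61.6%) and 52.6% of all regions in the windows reached 500 bp. Joined across 1000 bp, 9 of 20 inside regions (23.1 to 68.5%) and 55.03% of those in the windows did. These window shares include the inside regions, and their unjoined counterpart is 48.8%, not the outside share of 51.8%. The spans are given to 10 kb, so regions close to an end, such as the short ones at the 5′ end of Notch1, may lie on either side of it. With each span widened by 10 kb, 13 of 34 inside regions reached 500 bp, 38.2% (22.2 to 56.4%). The difference between inside and outside was not tested.

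**Figure D3:**
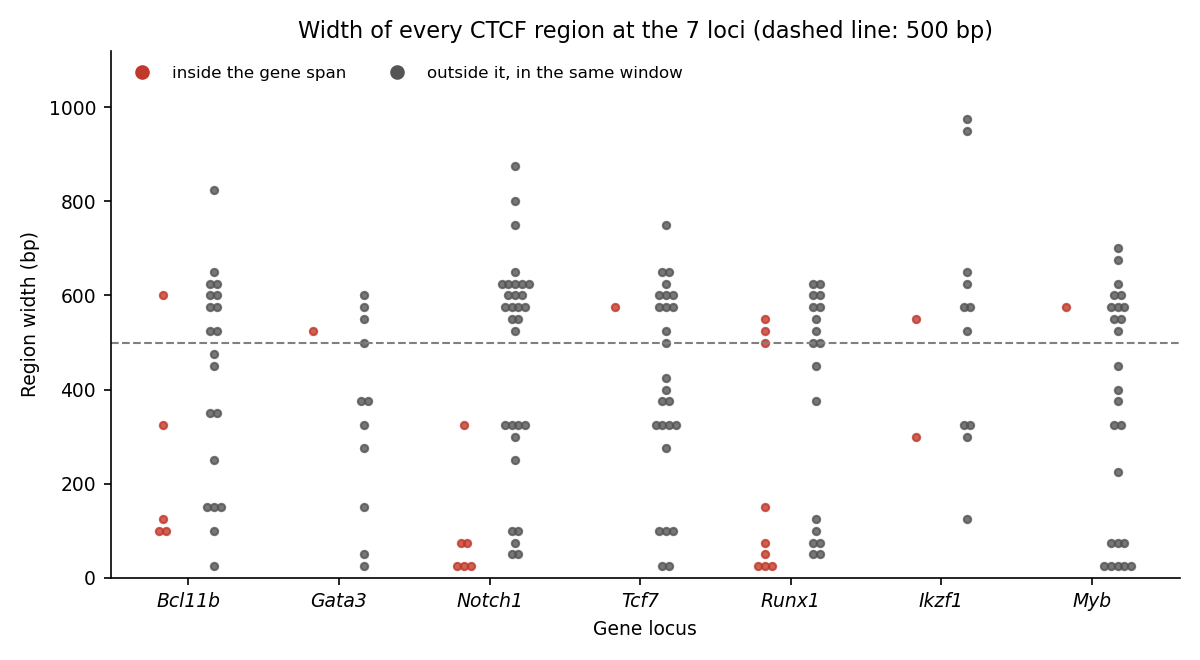
Width in bp of every CTCF region at the 7 loci, inside the gene span in red and outside it in grey, with points of equal width spread sideways. The dashed line is at 500 bp. Inside Notch1 the 6 regions measure 25 to 325 bp, and at Gata3, Tcf7 and Myb the single inside region is 525 to 575 bp wide.

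Over whole windows, widths were close to those of the map. A width of at least 500 bp was found for 81 of 166 regions, 48.8% (exact binomial 95% interval 41.0 to 56.7%), and a width of at most 100 bp for 39, 23.5% (17.3 to 30.7%). The share of wide regions ran from 41.7% at Gata3 to 61.5% at Ikzf1. Ikzf1 had 0 of 13 regions of 100 bp or less, which allows a share of up to 23.1% (3 counts of the total). A second region within 200 bp, which can be a piece of the same site, was present for 18 of 166 regions, 10.8% (6.55 to 16.6%). Over the map 20.7% of regions had one. The median gap between neighbouring regions of a window was 11.7 kb (8.50 to 15.5 kb), and 14.6 kb in the map.

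A CTCF region lay near the 5′ end of most of these genes. Within 10 kb of the 5′ end of the span there was a region at 6 of 7 genes, and within 10 kb of the 3′ end at 4 of 7. Of positions taken every 10 kb, 25.9% had a region that near over the map and 51.1% within the 7 windows. Ends of other genes were not compared, so these counts do not set the 7 genes apart. The nearest region was 0.402 kb from the 5′ end at Notch1, 0.774 kb at Gata3, 1.35 kb at Runx1, 1.65 kb at Myb, 2.11 kb at Bcl11b and 3.66 kb at Ikzf1. Tcf7 missed the limit narrowly, at 10.7 kb. The spans are given to 10 kb, so these distances do not place a region on either side of a transcription start, and 10.7 kb cannot be told apart from the limit. Of the 25 inside regions, 16 lay closer to the 5′ end and 9 closer to the 3′ end. The 16 include short regions 25 bp apart in Notch1 and in Runx1, which can be pieces of the same site. The split was not tested.

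Notch1 (chromosome 2, 26.31 to 26.36 Mb) was the only gene of the 7 without an inside region of 500 bp or wider. Its window was nevertheless the densest with the 250-kb flank. At its 5′ end 4 short regions stood in a row, chr2:26359374-26359398, chr2:26359424-26359448, chr2:26359474-26359548 and chr2:26359574-26359598. They measured 25, 25, 75 and 25 bp and were 25 bp apart, so that joining across 200 bp made them 1 region of 225 bp. Whether they are 1 site near the authors' threshold cannot be told from a track without heights. The other inside regions were chr2:26352499-26352573 (75 bp) and chr2:26323974-26324298 (325 bp).

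Wide CTCF regions stood on both sides of Notch1. The nearest region downstream was chr2:26304874-26305423, 550 bp wide and 4.58 kb from the span. Upstream, 43.0 kb were free of regions as far as chr2:26402974-26403223 (250 bp). Each flank held 15 regions, of which 10 upstream and 9 downstream were 500 bp or wider. The 15 upstream regions lay 43.1 to 159 kb from the 5′ end, and a gap of 183.55 kb followed across the edge of the window. The widest region, chr2:26442224-26443098, measured 875 bp. The longest gap between regions of the window was 56.5 kb, from 26207924 to 26264448 on the downstream side. Notch1 also had the most neighbours, with 16 protein-coding genes in the corresponding stretch of the GRCm38 gene table. The nearest were Egfl7 upstream and Sec16a downstream.

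Tcf7 (chromosome 11, 52.07 to 52.10 Mb) had wide CTCF regions at its 3′ end. The single inside region, chr11:52075321-52075895, was 575 bp wide and 24.4 kb from the 5′ end of the 30-kb span. The next, chr11:52067296-52067945, was 650 bp wide and 2.06 kb beyond the 3′ end. On the 5′ side the nearest region was chr11:52110746-52111345 (600 bp). These outer regions, 42.8 kb apart, were the closest bounding pair of any of the 7 genes. The upstream flank was the fullest of all flanks, with 17 regions, and 7 of these stood between 52148696 and 52164870. The downstream flank held 9, among them the widest region of the window, chr11:51877571-51878320 (750 bp), which bordered the longest gap, 78.8 kb, from 51878321 to 51957145. In the gene table Skp1 overlaps the 3′ end of Tcf7, Olfr1371 is the next gene on that side, and Vdac1 is the nearest upstream.

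Gata3 (chromosome 2, 9.78 to 9.81 Mb) had the fewest CTCF regions, and they lay mostly upstream. Inside the span stood chr2:9801149-9801673 (525 bp), 8.59 kb from the 5′ end, and chr2:9810774-9811273 (500 bp) lay just beyond that end. The upstream flank held 9 regions and the downstream flank 2. The downstream regions were chr2:9749349-9749623 (275 bp), 30.4 kb from the span, and chr2:9723124-9723273 (150 bp). Below them a gap of 228.2 kb ran across the edge of the window. The longest gap within the window, 109.775 kb from 9822049 to 9931823, was upstream. The widest region, chr2:10022674-10023273, measured 600 bp. The nearest genes in the table were Taf3 upstream, which encodes a subunit of the general transcription factor TFIID, and Celf2 downstream, an RNA-binding protein gene beyond 250 kb.

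Bcl11b (chromosome 12, 109.15 to 109.24 Mb) had 3 wide CTCF regions around its 5′ end. They were chr12:109236861-109237460 (600 bp) inside the span, and chr12:109242111-109242635 (525 bp) and chr12:109244336-109244985 (650 bp) upstream. The other inside regions were smaller. They measured 100 bp (chr12:109198736-109198835), 325 bp (chr12:109202886-109203210), 100 bp (chr12:109214836-109214935) and 125 bp (chr12:109215311-109215435). Upstream, 11 of the 14 regions lay 119.7 to 229.5 kb from the gene, beyond the longest gap of 79.2 kb (109280236 to 109359410). The widest region of the window, chr12:109447086-109447910 (825 bp), was one of the 11. Downstream there were 6 regions of 25 to 475 bp, the nearest being chr12:109143486-109143960 (475 bp), 6.04 kb from the 3′ end. The nearest genes in the table were Setd3 upstream and the predicted gene Gm52008 downstream.

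Runx1 (chromosome 16, 92.60 to 92.83 Mb), the longest of the 7 genes, had CTCF regions in its body and downstream, and few upstream. Of its 9 inside regions, 3 were 500 bp or wider. They were chr16:92828128-92828652 (525 bp), 1.61 kb from the 5′ end, chr16:92814553-92815052 (500 bp), 15.2 kb from it, and chr16:92698753-92699302 (550 bp), 131 kb from it. The other 6 measured 25 to 150 bp. Stretches of 69.8 and 91.15 kb inside the gene held no region. The proximal and distal promoters printed above lie 128.7 kb apart in GRCm38, and the centres of the 525-bp and the 550-bp region lie 129.4 kb apart in mm9. This pair was picked after the values were seen, and it does not place either region at a promoter.

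On the upstream side of Runx1 the 250-kb flank held 3 regions of 75 to 100 bp. The nearest, chr16:92868228-92868327, was 38.2 kb from the span and was followed by a gap of 143.5 kb (92868328 to 93011827), the longest between 2 members of any of the 7 windows. The stretch of the Gata3 window below its first region was longer, with 193 kb from the window's edge to the centre of that region. The downstream flank held 15 regions, 10 of them 500 bp or wider, from 33.6 kb beyond the 3′ end onward. The first, chr16:92565778-92566402, and chr16:92511828-92512452 shared the largest width of the window, 625 bp. The regions that bound the gene were 301.8 kb apart. Without regions of 100 bp or less the density at Runx1 fell from 37.0 to 23.3 per Mb, because 10 of its 27 regions were that narrow. Over the map 22.3% of regions were that narrow, so 23.3 per Mb is not comparable with the density of the unfiltered map. The nearest genes in the table were Setd4 upstream and Clic6 downstream.

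Ikzf1 (chromosome 11, 11.59 to 11.67 Mb) had 2 CTCF regions inside, both in the part nearer to the 3′ end. They were chr11:11639221-11639520 (300 bp) and chr11:11642646-11643195 (550 bp), 49.4 and 52.9 kb from the 5′ end. The nearest upstream region was chr11:11586021-11586345 (325 bp). A gap of 121.4 kb (11457621 to 11579020) lay farther upstream, and the upstream flank held 6 regions in all. Downstream, 5 regions fell within the 80 kb that the rule includes. The first, chr11:11688271-11689220 (950 bp), was 18.3 kb from the span. The widest of any member, 975 bp, was chr11:11361371-11362345 upstream. The nearest genes in the table were 4930512M02Rik upstream and Fignl1 downstream, which encodes a protein of the AAA ATPase family.

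Myb (chromosome 10, 20.84 to 20.88 Mb) had 1 inside region, chr10:20877778-20878352 (575 bp), 1.94 kb from the 5′ end. The nearest region downstream was chr10:20837953-20838277 (325 bp), 1.72 kb from the 3′ end, and the nearest upstream was chr10:20898528-20898902 (375 bp), 18.5 kb away. Thus 39.5 kb between the regions at the ends of the gene held no region. The flanks held 11 regions upstream, toward Hbs1l, and 14 downstream, toward Ahi1. The widest region, chr10:20685728-20686427 (700 bp), was downstream. The longest gap, 65.2 kb, ran from 20909278 to 20974427 upstream. Beyond the last downstream region a gap of 244.65 kb ran across the edge of the window.

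Flanks without a neighbouring gene held fewer and narrower CTCF regions than the other flanks. In the gene table, 3 of the 14 flanks had 0 protein-coding neighbours, namely the downstream flanks of Bcl11b and Gata3 and the upstream flank of Runx1. They held 6, 2 and 3 regions, 14.7 per Mb (exact Poisson 95% interval 7.32 to 26.2). The other 11 flanks held 130 regions, 50.4 per Mb (42.1 to 59.8), with 5 to 17 in each. Single flanks were not fully apart. The upstream flank of Ikzf1, with 3 neighbouring genes, held 6 regions, as many as the downstream flank of Bcl11b. Of the 11 regions in the flanks without genes, 0 were 500 bp or wider, which allows a share of up to 27.3% (3 counts of the total) or 28.5% by the exact binomial 95% limit. In the other flanks 73 of 130 were, 56.2% (exact binomial 95% interval 47.2 to 64.8%). Over the map the density was 20.8 per Mb, inside the interval of the flanks without genes and below that of the other flanks, and 46.6% of regions were that wide. With the limit set at the median width of the map the count in the flanks without genes became 1 of 11. Beyond that contrast, the number of genes and of regions did not share an order, since the downstream flank of Notch1 held 11 genes and 15 regions and the upstream flank of Tcf7 held 2 genes and 17 regions. This grouping was chosen after the values were seen and was not tested. Genes were counted from each gene's ends in GRCm38, so their flanks match those of the track approximately, and non-coding genes were left out.

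**Figure D4:**
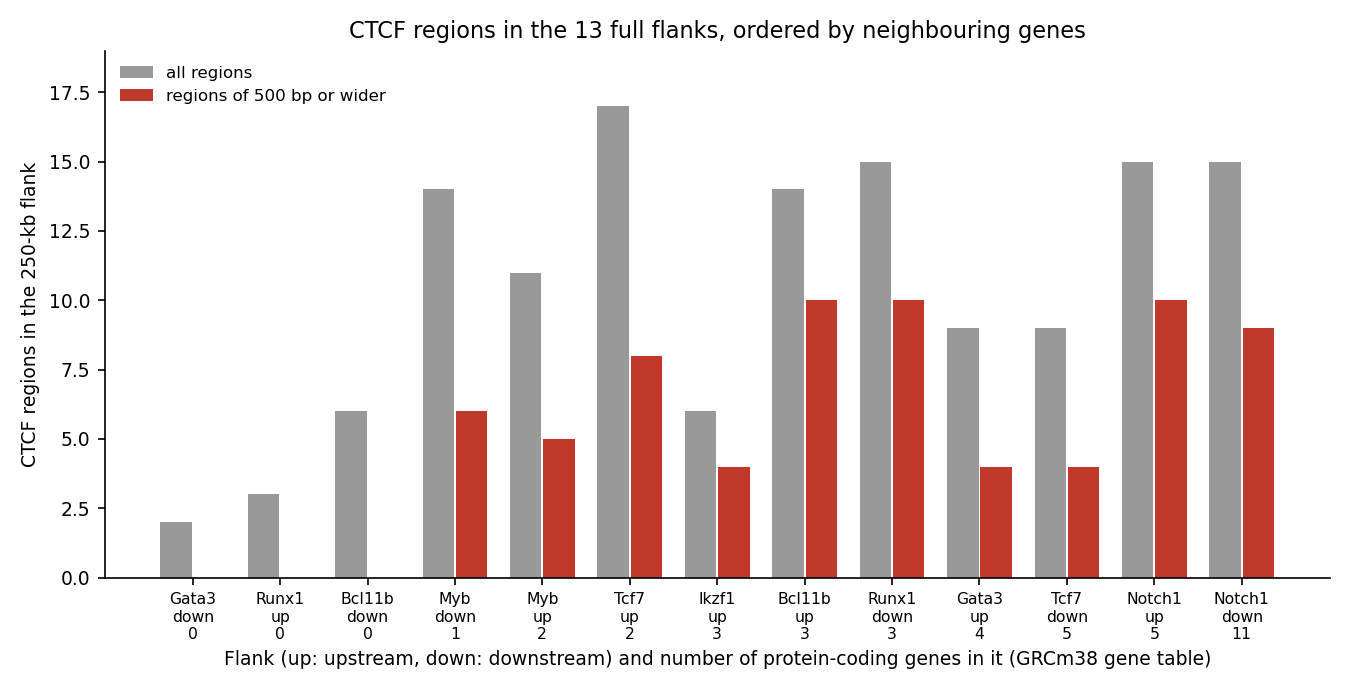
Number of CTCF regions in each of the 13 flanks of full 250-kb length, all regions in grey and those of 500 bp or wider in red, ordered by the number of protein-coding neighbours printed under each name. The 3 flanks with 0 neighbours hold 2, 3 and 6 regions and no wide one, and the others hold 6 to 17 regions.

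Over all loci, the intervals of the sides overlapped. The upstream flanks held 75 regions, 42.9 per Mb (exact Poisson 95% interval 33.7 to 53.7), and the downstream flanks 66, 41.8 per Mb (32.3 to 53.1). At the limits of the windows, the member closest to one was centred 5.58 kb inside the upper limit at Ikzf1. The closest region left out was centred 0.567 kb beyond the lower limit at Tcf7.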

How the data were processed

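The authors deposited a browser track of the CTCF library that lists chromosome, start and end of 25-bp bins within their peaks, with no score (per the file headers and values). The submitters' processing notes name Bowtie and mm9. Which peak caller and threshold were applied, and how the input entered, is not given in the sources used here. Touching bins were joined into regions, and positions were converted to 1-based coordinates. Gene spans, given to 10 kb, were those of the selection rule. The 7 genes, the spans and the lists were chosen with earlier results of these data known. The rule for named regions took every region inside a span (the widest 3 at Runx1), the nearest outside each end, the widest of each window and the longest gap. Density over the map was per Mb between the outermost regions of each chromosome. For a count of 0 the limit was 3 counts of the total. Other Poisson and binomial 95% intervals were exact, and the interval of a density ratio came from the exact binomial share. Neighbouring genes came from the RefSeq table of GRCm38.p6, without conversion of coordinates. The code was tested on 53548 simulated regions and recovered all of them and the counts at 7 of 7 loci. The simulated regions were kept well apart, so closely spaced regions were not tried. Upstream and downstream sides and density ratios were not checked in this way. Software versions were matplotlib 3.10.9, pandas 2.3.3, scipy 1.17.1, numpy 2.4.6 and Python 3.11.15.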

Additional observations from a re-analysis of the deposited data

How the results depend on the processing

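The 15 results were recomputed under alternatives, which gave 103 values. In 96 of these the value lay inside the main interval, or the count within 1.5 times the main count, and 7 moved. Membership by any overlap in place of the centre returned every planned main value. Values with a locus left out share most regions with the main value, so the tally does not measure stability. Of the 103, 15 values (widths inside genes, and flanks without genes) were added after seeing the data. Leaving out regions of 100 bp or less gave 63.8% of regions at 500 bp or more, a median width of 550 bp, a median gap of 16375 bp and 23.3 regions per Mb at Runx1. Dropping the narrowest regions raises the share and the median width and lowers the density by construction. With windows and map both filtered in this way, the ratio of their densities was 2.03 (1.69 to 2.41). With a flank of 100 kb the windows held 84 regions in place of 166, by construction. The count of regions of 500 bp or more in flanks without a neighbouring gene was 1 in place of 0 when regions up to 1000 bp apart were joined, and 1 with the limit at the median width of the map. The ratio of inside to outside density, 1.07, ran from 0.690 to 1.19 over its alternatives, on both sides of 1. Each locus left out in turn gave ratios of 1.88 to 2.21 (windows to map) and 0.969 to 1.15 (inside to outside), and shares of wide regions of 47.7 to 49.6% (windows) and 29.2 to 42.1% (inside). No paired analysis was possible because the track holds a single CTCF library. Weaker sites below the authors' threshold cannot be counted, since the depth is unknown.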
